A study of Mus musculus with 6 samples.

Results

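Axon guidance genes encode the cues and receptors that steer growing axons. The 69 genes described here are 36 ligands and 33 receptors, among 19938 genes that could be named. They were defined by gene symbol, and the set was chosen with earlier results of these data known. It holds the semaphorins of classes 3 to 7, plexins, neuropilins, Slits, Robo receptors, netrins, netrin-G (Ntng1), Unc5 receptors, Dcc, ephrins and Eph receptors. Each is measured by a probeset with a single annotated symbol. For the 6 members with more than 1 such probeset, the one with the highest mean was used. The rule covers 71 mouse symbols in RefSeq, and Ephb2 and Ntng2 are not analysed here. No filter on low values was applied, so all 69 were tested.

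Semaphorins signal through plexins, and most secreted class 3 members also need a neuropilin as coreceptor. Slits repel axons through Robo receptors, netrins attract through Dcc or repel through Unc5 receptors, and ephrins signal by cell contact with Eph receptor kinases, A ephrins mainly with EphA and B ephrins mainly with EphB. Outside the nervous system the same proteins guide vessels and sort cells at tissue borders, and several Eph receptors and ephrins are known to be made by embryonic stem cells.

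The groups were E14 mouse embryonic stem cells given 0.5 mM valproic acid (VPA) for 16 h, the same cells given 0.2 mM sodium butyrate (NaBu) for 16 h, and untreated cells (Control), with 2 arrays each. VPA and butyrate are short-chain fatty acids that inhibit histone deacetylases. E14 is 1 established line, and every group, Control included, grew on primary embryonic fibroblasts arrested with mitomycin C, in ES cell medium with serum and leukemia inhibitory factor. Total RNA of the whole dish was hybridised to Affymetrix arrays, and values are log2 expression as deposited. The labels number the arrays 1 and 2 within a group but do not say that these are separate cultures, so p-values measure only the spread between these samples, which may be technical. Same-numbered arrays are called a replicate set below, and pairs of values are given in the order replicate 1, replicate 2.

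The median over all genes lay between 5.71 and 5.79 on the 6 arrays. Several members described below, among them Unc5d, Dcc, Robo2, Epha3, Epha8 and Plxnb3, lay under it on every array. Whether their signal exceeded background was not tested. Means over marker lists checked the labelled cells. The 10 pluripotency markers averaged 10.54 and 10.54 in VPA, 10.96 and 10.69 in NaBu and 11.01 and 10.77 in Control. The 23 measured fibroblast markers averaged 6.79 and 7.60 in VPA, 6.98 and 7.66 in NaBu and 6.92 and 7.41 in Control, so fibroblast markers were measured on every array and their mean was higher in the second array of every group. How much of this RNA came from the feeder layer was not tested. Means over 12 neuron markers were 6.42 and 6.29 in VPA, 5.98 and 6.26 in NaBu and 5.95 and 6.19 in Control. Lists for endothelium (7 measured), neural progenitors (5) and primitive endoderm (7) averaged between 4.95 and 5.50 on every array.

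With VPA the guidance genes stood higher more often than lower, but limma called no gene of the whole table at an adjusted p under 0.05. The mean of VPA was above that of Control for 49 of 69 members, against 53.0% of all genes. Their median log2 difference was 0.13, against 0.01 over all genes, and was 0.13 within replicate set 1 and 0.18 within set 2. Among receptors 26 of 33 stood higher, with a median of 0.20, and among ligands 23 of 36, with a median of 0.10. At least 0.2 higher in both replicate sets were 15 members, or 21.7%, where 6.47% of all genes were, and 1 member was at least 0.2 lower in both, where 5.51% of all genes were. Of the 15, 11 are receptors (Epha1, Epha2, Epha7, Ephb3, Ephb6, Nrp1, Nrp2, Plxna2, Plxnd1, Robo2 and Unc5d) and 4 are ligands (Efnb1, Sema3e, Sema4f and Sema7a). In bulk RNA, fewer cells of a type and less RNA per cell cannot be told apart.

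The smallest adjusted p of a member was 0.964 in limma with 1 mean per group, and 0.202 with the replicate number as a block. Intervals given for single genes are from the model without the block unless stated. At an unadjusted p under 0.05 stood 6 members higher and 1 lower without the block, where 2.74% and 2.18% of all genes were, and 15 higher and 3 lower with it, where 7.21% and 6.01% were. VPA lay beyond Control on both arrays for 23 members higher (19.1% of all genes) and 6 lower (15.6% of all genes). The 6 were Dcc, Epha10, Ntn1, Ntn4, Plxnb1 and Sema5b. The smallest p of an exact permutation test of 2 arrays against 2 is 0.333, so none was used. Marker lists were also compared between VPA and Control. Of 12 neuron markers 9 stood higher with VPA, where 53.0% of all genes did. Their median was 0.36, and was 0.47 in set 1 and 0.13 in set 2. Of 10 pluripotency markers 9 stood lower, with a median of -0.30, which was -0.44 in set 1 and -0.24 in set 2. Of 23 fibroblast markers 13 stood higher, with a median of 0.01, which was -0.16 in set 1 and 0.18 in set 2. The part of these cell markers in the guidance gene values was not tested.

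**Figure D1:**
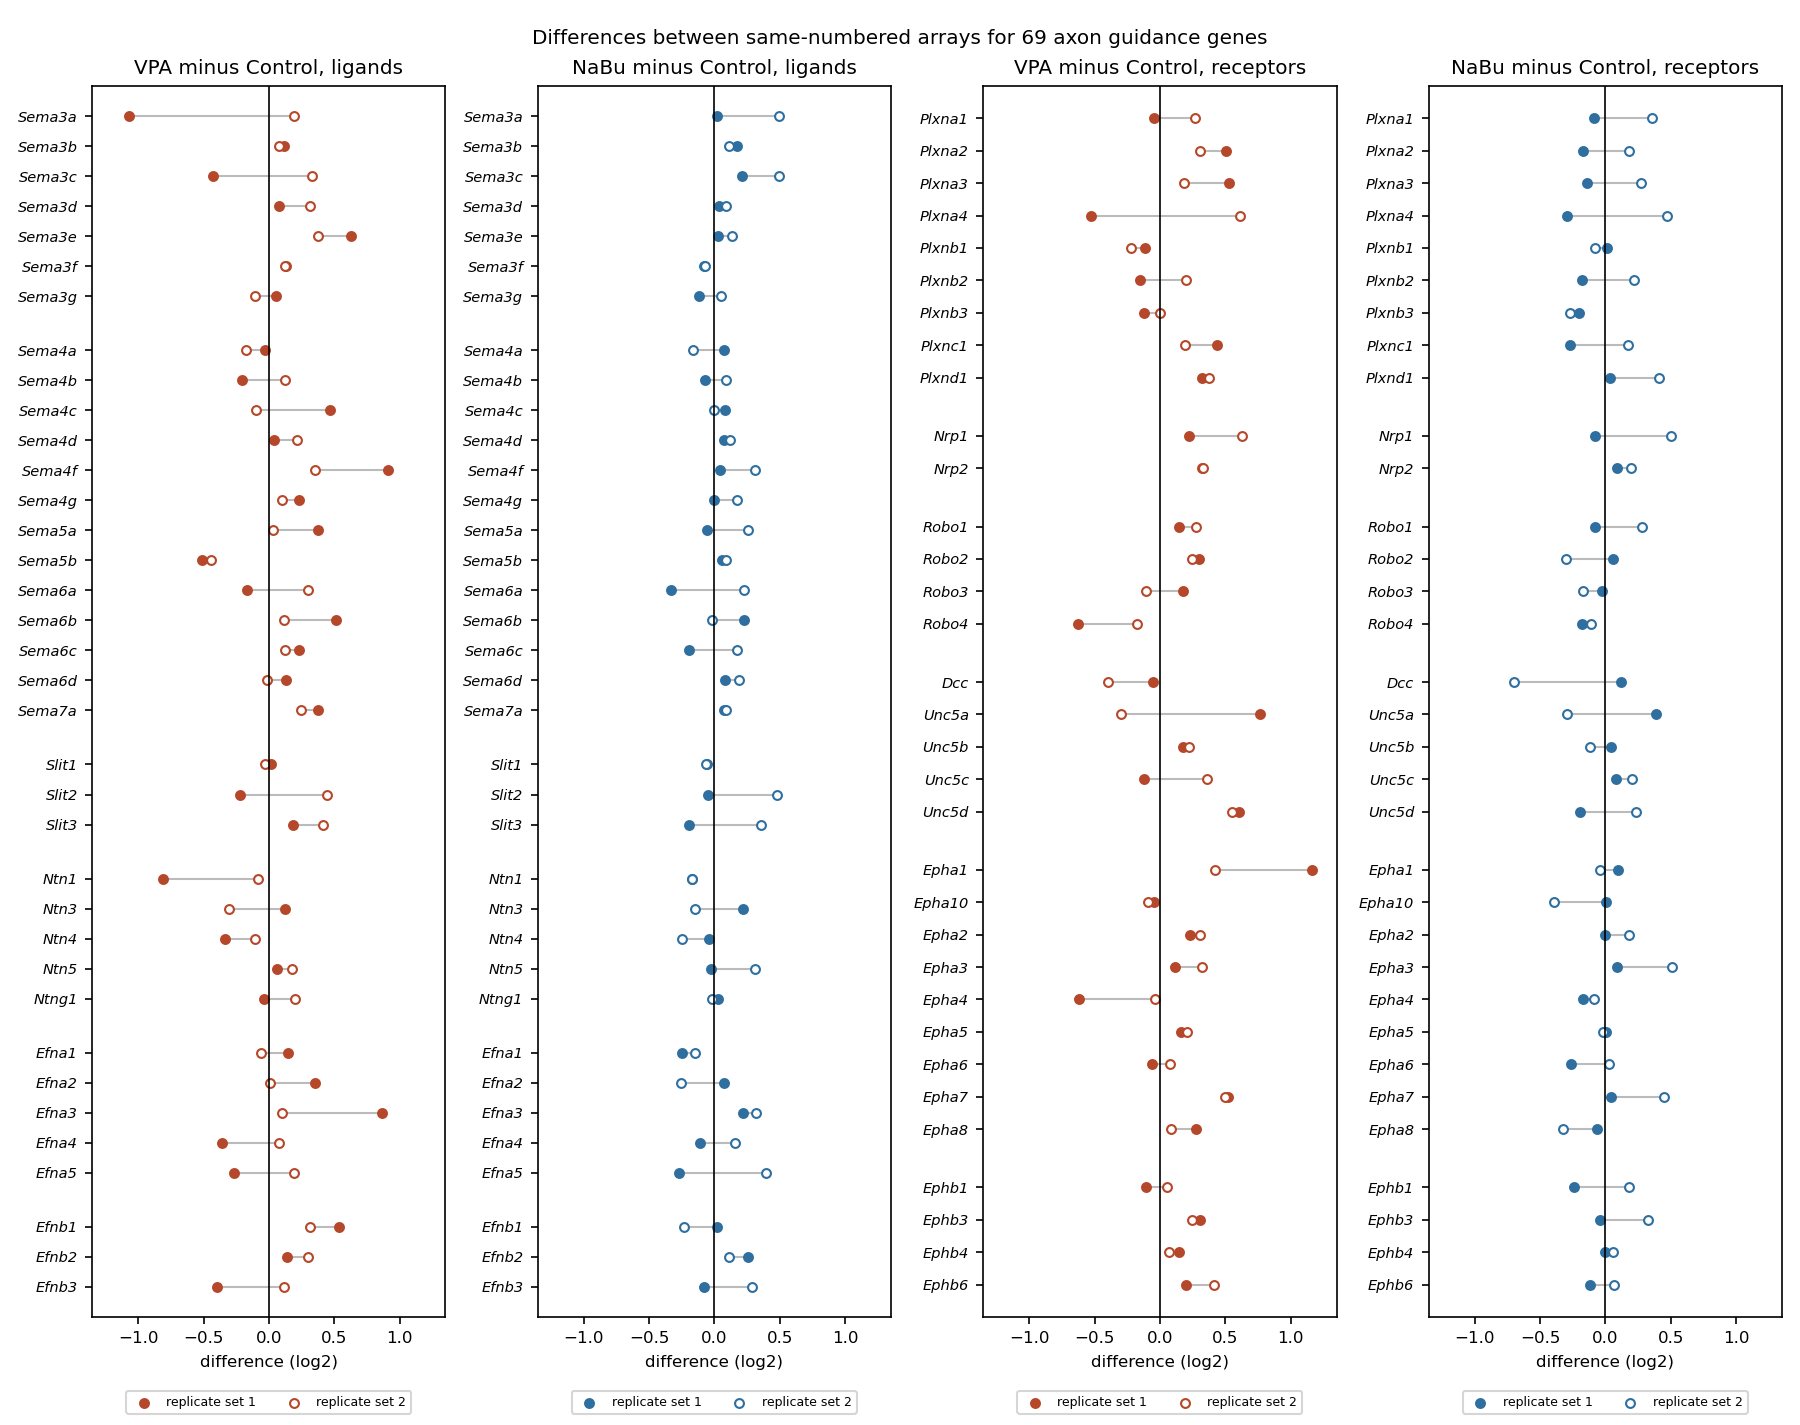
Log2 difference between same-numbered arrays for each of the 69 genes (rows, grouped by family), VPA minus Control in red and NaBu minus Control in blue, ligands on the left and receptors on the right. Filled points are replicate set 1 and open points set 2, joined by a line. For VPA 15 genes have both points at 0.2 or above, among them both neuropilins, and 1 gene, Sema5b, has both at -0.2 or below.

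The promoters of 4 genes are shown because they are the members among the 12 named for VPA against Control with both VPA arrays outside the range of the other 4 arrays and a matched promoter: Epha1 and the ligands Sema3e and Sema4f, which stood higher, and Sema5b, which stood lower. Each is the 250 bases before the gene's start in RefSeq for GRCm38.p6, 5′ to 3′ on the gene's strand, at chr6:42373269-42373518 (minus strand) for Epha1, chr5:14025026-14025275 (plus strand) for Sema3e, chr6:82939770-82940019 (minus strand) for Sema4f and chr16:35541112-35541361 (plus strand) for Sema5b. Capitals mark the GC box GGGCGG, the core motif of Sp1-type factors, on either strand.
Epha1: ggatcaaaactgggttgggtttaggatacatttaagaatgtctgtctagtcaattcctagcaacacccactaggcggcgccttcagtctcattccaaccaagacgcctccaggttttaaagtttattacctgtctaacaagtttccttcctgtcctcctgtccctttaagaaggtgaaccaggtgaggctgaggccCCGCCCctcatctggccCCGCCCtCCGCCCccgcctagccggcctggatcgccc
Sema3e: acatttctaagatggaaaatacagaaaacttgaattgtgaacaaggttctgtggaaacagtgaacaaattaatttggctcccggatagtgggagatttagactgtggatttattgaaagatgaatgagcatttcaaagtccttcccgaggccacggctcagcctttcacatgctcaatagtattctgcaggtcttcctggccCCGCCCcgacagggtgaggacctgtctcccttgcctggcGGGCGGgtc
Sema4f: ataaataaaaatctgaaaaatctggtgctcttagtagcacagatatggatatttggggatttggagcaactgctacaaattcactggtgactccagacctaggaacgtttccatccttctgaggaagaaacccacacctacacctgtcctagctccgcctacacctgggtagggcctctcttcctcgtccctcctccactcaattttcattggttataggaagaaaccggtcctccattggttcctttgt
Sema5b: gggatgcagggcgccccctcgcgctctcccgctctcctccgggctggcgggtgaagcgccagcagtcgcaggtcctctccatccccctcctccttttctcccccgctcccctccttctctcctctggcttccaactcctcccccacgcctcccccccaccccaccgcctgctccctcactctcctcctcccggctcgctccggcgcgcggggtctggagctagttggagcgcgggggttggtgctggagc

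Epha1 held 3 GC boxes and 9 CpG pairs, Sema3e 2 boxes and 7 CpG pairs, and Sema4f no box and 4 CpG pairs. Sema5b held no box and 19 CpG pairs. A promoter was matched by symbol for 59 members, and Unc5d is named only. A GC box occurred in 44 of the 59 (74.6%), against 8901 of 27025 promoters of the same length (32.9%), and the median CpG count was 16, against 6 over all. The 27025 are all symbols with a RefSeq promoter, and they were not limited to the genes measured here. Of the 14 matched members at least 0.2 higher with VPA in both sets, 11 (78.6%) held a box, a share near that of all guidance promoters. A match in these letters is a description of sequence and not of a bound site.

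Among receptors, Epha1, a receptor kinase for A ephrins, had log2 values of 6.19 and 6.22 in VPA, 5.13 and 5.76 in NaBu and 5.03 and 5.80 in Control. Both VPA arrays lay above the other 4, and the 2 VPA arrays lay closer together than either other pair. The VPA minus Control difference was 0.79 (95% interval 0.06 to 1.53), a 1.73-fold higher level, and was 1.16 in set 1 and 0.42 in set 2. Epha7, a sister receptor, had 6.11 and 6.39 in VPA, 5.63 and 6.34 in NaBu and 5.59 and 5.89 in Control. VPA did not overlap Control, the difference was 0.51 (95% interval -0.11 to 1.13), and it was about the same in both sets, 0.52 and 0.50.

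Of the 9 EphA receptors, 7 stood higher with VPA. Epha2, a receptor that binds ephrin-A1, had 10.43 and 10.13 in VPA, 10.19 and 10.01 in NaBu and 10.20 and 9.83 in Control, so the groups overlapped although each VPA array exceeded its same-numbered Control array. Epha4, which binds ephrins of both classes, had 8.28 and 7.86 in VPA, 8.72 and 7.81 in NaBu and 8.90 and 7.90 in Control. Its spread between replicate arrays was wider than its VPA minus Control difference of -0.33 (95% interval -1.33 to 0.68), which turned to 0.17 without Control replicate 1 in the model without the block and stayed negative, from -0.60 to -0.06, with it. Among 4 EphB receptors 3 stood higher. The other, Ephb1, differed by -0.03, and by 0.19 with its second probeset. Ephb6, whose kinase domain lacks catalytic activity, had 6.10 and 6.10 in VPA, 5.79 and 5.75 in NaBu and 5.90 and 5.68 in Control, a VPA minus Control difference of 0.31 (95% interval 0.01 to 0.61). Its VPA arrays lay above all 4 others.

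Unc5d, a netrin receptor of the repulsive Unc5 group that also binds FLRT proteins, had 5.02 and 4.84 in VPA, 4.22 and 4.53 in NaBu and 4.42 and 4.29 in Control. Both VPA arrays exceeded the other 4, and the difference from Control was 0.58 (95% interval 0.21 to 0.94), with 0.60 and 0.55 in the 2 sets. A second probeset for Unc5d gave a smaller VPA minus Control difference of 0.14. Values of both probesets lay under the median over all genes on every array. Dcc, the receptor through which netrin-1 attracts axons, had 4.13 and 3.99 in VPA, 4.30 and 3.69 in NaBu and 4.19 and 4.39 in Control. Its VPA arrays lay below both Control arrays, with a difference of -0.22 (95% interval -0.75 to 0.30).

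Both neuropilins stood higher in both sets. Nrp1, which also binds VEGF, had 5.62 and 5.85 in VPA, 5.32 and 5.72 in NaBu and 5.40 and 5.22 in Control, a VPA minus Control difference of 0.42 (95% interval -0.00 to 0.85). Nrp2 had 7.34 and 7.67 in VPA, 7.11 and 7.53 in NaBu and 7.02 and 7.34 in Control. Its VPA minus Control difference was 0.32 (95% interval -0.18 to 0.83), and the groups overlapped narrowly. Of the 9 plexins, the signalling receptors of semaphorins, 7 stood higher with VPA, and Plxna2 and Plxnd1 did so by at least 0.2 in both sets. Plxnd1, the receptor of Sema3e, had 5.84 and 5.83 in VPA, 5.55 and 5.86 in NaBu and 5.51 and 5.45 in Control. VPA did not overlap Control, and the difference was 0.35 (95% interval 0.01 to 0.69). Plxna2 had 6.15 and 5.85 in VPA, 5.48 and 5.73 in NaBu and 5.65 and 5.55 in Control, with both VPA arrays on top and a difference from Control of 0.40 (95% interval 0.02 to 0.78).

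Robo2, a Slit receptor of neurons, had 4.16 and 3.93 in VPA, 3.92 and 3.38 in NaBu and 3.86 and 3.68 in Control. Its VPA arrays lay above both Control arrays by a mean of 0.27 (95% interval -0.22 to 0.77). Robo4, the Robo receptor of endothelium, had 5.64 and 5.15 in VPA, 6.09 and 5.22 in NaBu and 6.27 and 5.33 in Control. In every group the first array was the higher, the VPA minus Control difference was -0.40 (95% interval -1.38 to 0.57), and without Control replicate 1 it was 0.07 in the model without the block. With the block the interval was -0.72 to -0.09, and the difference stayed negative, from -0.61 to -0.19, whichever array was left out. The mean of the endothelium markers was 5.32 and 5.13 in VPA, against 5.50 and 5.07 in Control, and its part in the Robo4 values was not tested.

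Among ligands, Sema3e, a class 3 semaphorin that acts through plexin-D1 without a neuropilin, had 6.79 and 6.99 in VPA, 6.19 and 6.75 in NaBu and 6.16 and 6.62 in Control. VPA lay above the other 4 arrays, with a difference from Control of 0.50 (95% interval -0.07 to 1.07). Sema4f, a membrane-bound semaphorin, had 6.41 and 6.0 in VPA, 5.55 and 5.96 in NaBu and 5.50 and 5.65 in Control. VPA again lay above the other 4 arrays, by 0.63 over Control (95% interval 0.14 to 1.12), 0.91 in set 1 and 0.35 in set 2. Efnb1, a transmembrane ligand of EphB receptors, had 6.33 and 6.76 in VPA, 5.81 and 6.21 in NaBu and 5.79 and 6.44 in Control. VPA exceeded Control by 0.43 (95% interval -0.23 to 1.08) and within each set, though the groups overlapped. By ligand family, 10 of 13 class 4 to 7 semaphorins and 4 of 7 class 3 semaphorins stood higher with VPA. So did 3 of 5 A ephrins, 2 of 3 B ephrins, 2 of 3 Slits and 2 of 5 in the family of netrins and netrin-G.

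Sema5b, a transmembrane semaphorin with thrombospondin repeats, was the 1 member at least 0.2 lower with VPA in both sets. It had 5.81 and 5.79 in VPA, 6.38 and 6.32 in NaBu and 6.32 and 6.23 in Control, so the VPA arrays lay below all 4 others, which were close together. The VPA minus Control difference was -0.48 (95% interval -0.75 to -0.21). Ntn1, the netrin that attracts axons through Dcc, had 5.78 and 6.18 in VPA, 6.41 and 6.09 in NaBu and 6.59 and 6.26 in Control. Its VPA arrays lay below both Control arrays, with -0.81 in set 1 and -0.08 in set 2. Ntn4, a netrin of basement membranes, had 4.75 and 5.03 in VPA, 5.05 and 4.89 in NaBu and 5.09 and 5.13 in Control, a VPA minus Control difference of -0.22 (95% interval -0.56 to 0.12).

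Sema3a, a secreted repellent that binds Nrp1, had 6.52 and 7.66 in VPA, 7.61 and 7.96 in NaBu and 7.59 and 7.47 in Control. The first VPA array was the lowest of the 6 and the second lay above both Control arrays, so the difference was -1.07 in set 1 and 0.19 in set 2, and 0.13 without VPA replicate 1. With VPA replicate 2 left out and the replicate block kept, limma called 774 of 19938 genes (3.88%) for VPA against Control, among them 6 members. These were Epha1 (1.13, adjusted p 0.00641), Sema4f (0.98, adjusted p 0.013), Efna3 (0.89, adjusted p 0.0139), Ntn1 (-0.81, adjusted p 0.0191), Sema3a (-0.95, adjusted p 0.0233) and Sema3e (0.65, adjusted p 0.0403). That model has 1 residual degree of freedom and rests on 1 VPA array, assumed to vary like the others. With the block and any other array left out, limma called 0 members for VPA against Control. Efna3, an A ephrin, had 7.42 and 7.06 in VPA, against 6.55 and 6.96 in Control.

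**Figure D2:**
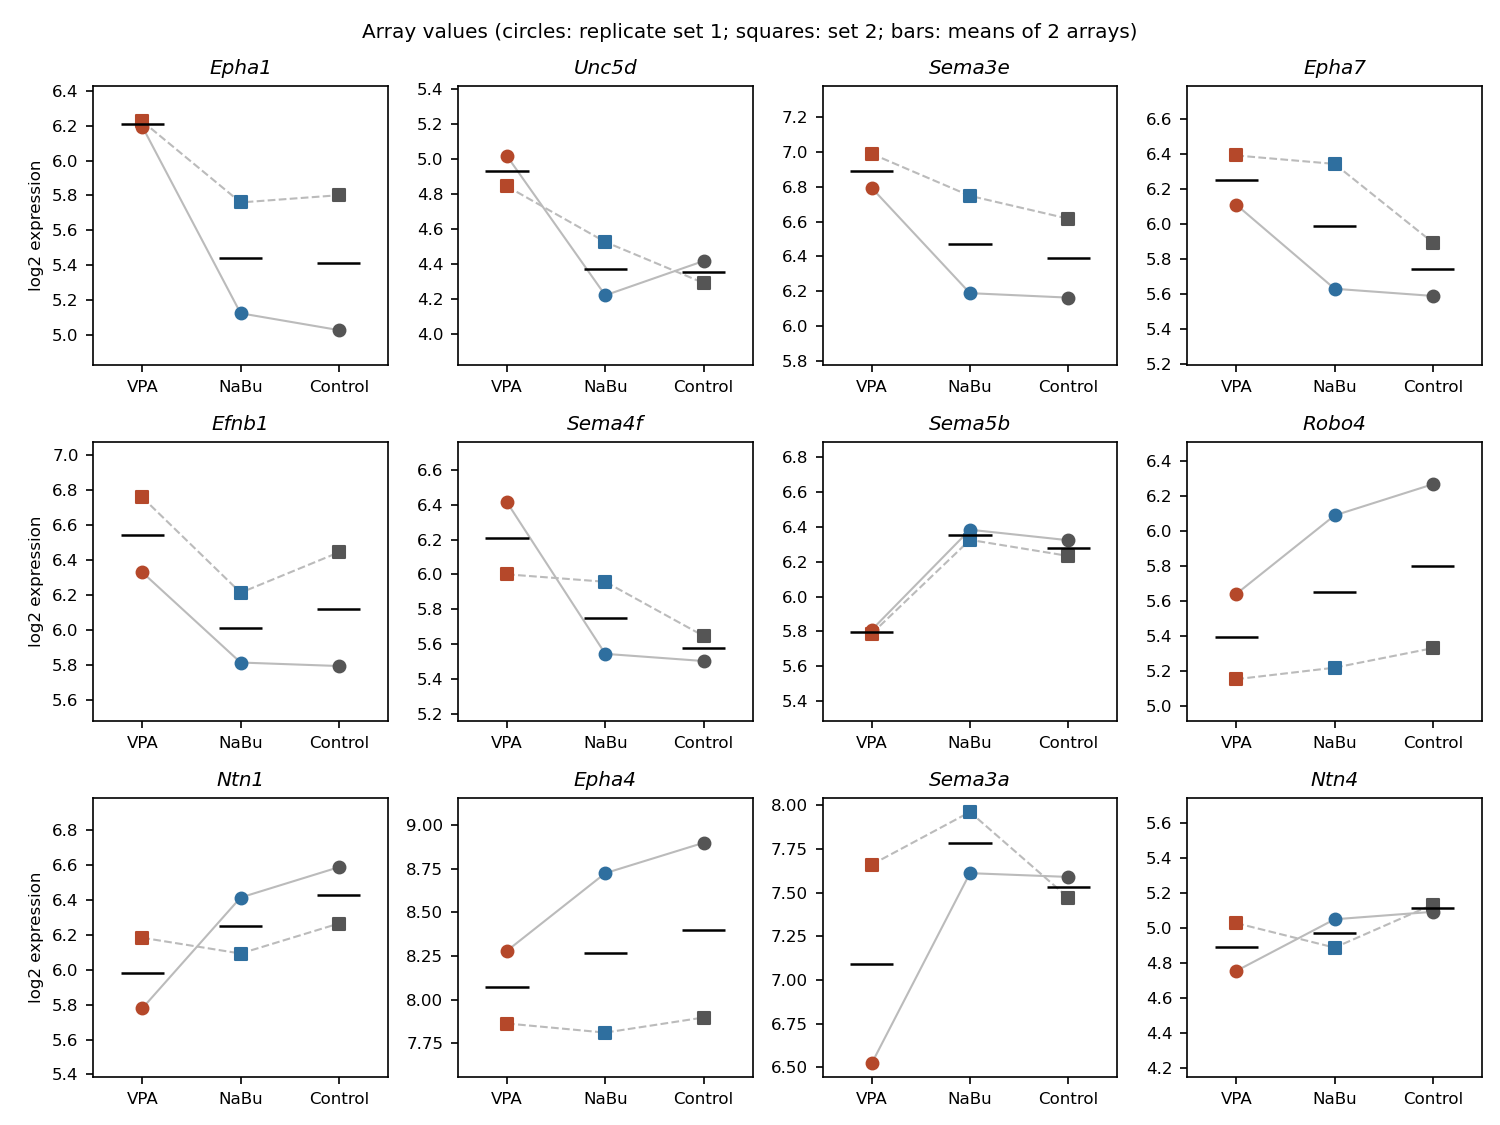
Log2 expression on each array (vertical axes, with a separate range for each gene) in VPA, NaBu and Control for the 6 members named higher and the 6 named lower with VPA. Circles with solid lines are replicate set 1, squares with dashed lines set 2, and black bars the means of 2 arrays. In Epha1, Unc5d, Sema3e, Sema4f and Sema5b both VPA arrays lie outside the range of the other 4, while Robo4 and Epha4 split by replicate set.

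With NaBu the members' differences from Control centred near 0. NaBu exceeded Control for 43 of 69 members, against 54.3% of all genes, with a median difference of 0.03, against 0.01 over all genes, and of -0.00 in set 1 and 0.11 in set 2. Receptors had a median of 0.02 and ligands of 0.07. At least 0.2 higher in both sets were 2 members, Efna3 and Sema3c, or 2.90%, where 2.78% of all genes were, and 0 members were at least 0.2 lower in both, where 2.32% were. NaBu lay beyond Control on both arrays for 6 members higher (12.7% of all genes) and 5 lower (11.2%), and both shares of the members, 8.70% and 7.25%, were below those of all genes. No member had an unadjusted p under 0.05 in limma without or with the block, where 1.56% and 4.59% of all genes did, and the smallest adjusted p with the block was 0.994. This comparison and that of VPA share the 2 Control arrays.

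Efna3 had 6.77 and 7.28 in NaBu, against 6.55 and 6.96 in Control, a difference of 0.27 (95% interval -0.30 to 0.84) with the groups overlapping. Sema3c, a secreted semaphorin known from the outflow tract of the heart, had 7.42 and 6.40 in NaBu, against 7.21 and 5.90 in Control. Its first array was the higher in both groups, and the difference of 0.35 (95% interval -0.87 to 1.58) was -0.30 without Control replicate 2 in the model without the block and stayed positive, from 0.09 to 0.61, with it. Epha3, a receptor for A ephrins, had 4.27 and 4.0 in NaBu, against 4.19 and 3.50 in Control, a difference of 0.30 (95% interval -0.36 to 0.96) that was -0.05 without Control replicate 2 in the model without the block and stayed positive, from 0.14 to 0.45, with it.

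Efnb2, the transmembrane ligand of Ephb4, had 7.92 and 7.95 in NaBu, against 7.67 and 7.85 in Control, so the groups did not overlap, with a difference of 0.18 (95% interval -0.19 to 0.55). For Epha7 the NaBu minus Control difference was 0.25 (95% interval -0.38 to 0.87), nearly all of it in set 2 (0.45, against 0.04 in set 1), and it was -0.11 without NaBu replicate 2 in the model without the block and at least 0.04 with it. Nrp1 likewise differed by 0.50 in set 2 and -0.08 in set 1, and Plxnd1 by 0.41 in set 2 and 0.03 in set 1. Over the 23 fibroblast markers NaBu exceeded Control for 20, with a median difference of 0.08 in set 1 and 0.21 in set 2, and their part in the differences of Epha7, Nrp1 and Plxnd1 was not tested.

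Lower with NaBu on both arrays stood Plxnb3, a plexin of neurons and glia, with 4.22 and 4.21 in NaBu, against 4.42 and 4.48 in Control, a difference of -0.24 (95% interval -0.53 to 0.06). Epha8 had 4.50 and 4.46 in NaBu, against 4.57 and 4.78 in Control, a difference of -0.19 (95% interval -0.50 to 0.11). These groups did not overlap, but the interval of each difference held 0. Efna1, the ligand of Epha2, had 5.17 and 5.75 in NaBu, against 5.42 and 5.90 in Control, and its difference of -0.20 turned to 0.09 without NaBu replicate 1 in the model without the block and stayed negative, from -0.30 to -0.10, with it. Epha10, a receptor without kinase activity, had 5.32 and 4.95 in NaBu, against 5.32 and 5.34 in Control. Dcc differed from Control by -0.70 in set 2 and 0.12 in set 1, so that its difference of -0.29 turned to 0.02 without NaBu replicate 2. Ntn4 differed by -0.14 (95% interval -0.48 to 0.20), which with the block turned to 0.02 without that array.

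Set directly against NaBu, at 0.5 mM of one compound and 0.2 mM of the other, VPA exceeded NaBu for 47 of 69 members, against 50.2% of all genes, with a median difference of 0.12, against 0.00 over all genes. Within sets the median was 0.15 in set 1 and 0.04 in set 2. At least 0.2 higher with VPA in both sets were 8 members, or 11.6%, where 4.35% of all genes were (Efna2, Efnb1, Epha1, Epha8, Ephb6, Robo2, Sema3e and Unc5d), and 2 were at least 0.2 lower, where 4.95% were (Sema3a and Sema5b). Limma called 0 genes, with a smallest adjusted p over the members of 0.998 without the block and 0.362 with it. At an unadjusted p under 0.05 stood 5 members higher and 1 lower without the block, where 1.95% and 1.69% of all genes were, and 9 higher and 3 lower with it, where 5.51% and 5.27% were. The doses differ, so no order of potency follows from these values.

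Efnb1 was 0.53 higher in VPA than in NaBu (95% interval -0.12 to 1.18), without overlap and nearly equally in both sets, 0.52 and 0.55. Epha1 was 0.77 higher (95% interval 0.03 to 1.5) and Unc5d 0.56 higher (95% interval 0.19 to 0.92). The NaBu minus Control differences of these genes were -0.11 for Efnb1, 0.03 for Epha1 and 0.02 for Unc5d. Epha8 had 4.84 and 4.87 in VPA, against 4.50 and 4.46 in NaBu, and did not overlap, with a difference of 0.37 (95% interval 0.07 to 0.67). Sema3e was 0.42 higher in VPA (95% interval -0.15 to 0.99). Robo2 was 0.40 higher (95% interval -0.10 to 0.89). Sema5b was 0.56 lower in VPA, with a difference of -0.56 (95% interval -0.83 to -0.29) and -0.57 and -0.54 in the 2 sets.

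Sema3a differed by -0.70 between VPA and NaBu (95% interval -1.55 to 0.16), most of it in set 1. Sema3c differed by -0.40 (95% interval -1.63 to 0.82) and Robo4 by -0.26 (95% interval -1.23 to 0.72), and without NaBu replicate 1 these were 0.11 and 0.18 in the model without the block. With the block both stayed negative, from -0.71 to -0.10 for Sema3c and from -0.47 to -0.05 for Robo4. Efnb3, a B ephrin of neurons, had 5.40 and 5.83 in VPA, against 5.72 and 6.0 in NaBu, with overlapping groups and a difference of -0.25 (95% interval -0.69 to 0.19). Ntn1 differed by -0.27, and with the block by 0.09 without VPA replicate 1. With VPA replicate 2 left out and the block kept, limma called 363 genes (1.82%) for VPA against NaBu, among them Epha1 (1.1, adjusted p 0.0153), Sema3a (-1.21, adjusted p 0.0188) and Sema4f (0.80, adjusted p 0.0402).

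**Figure D3:**
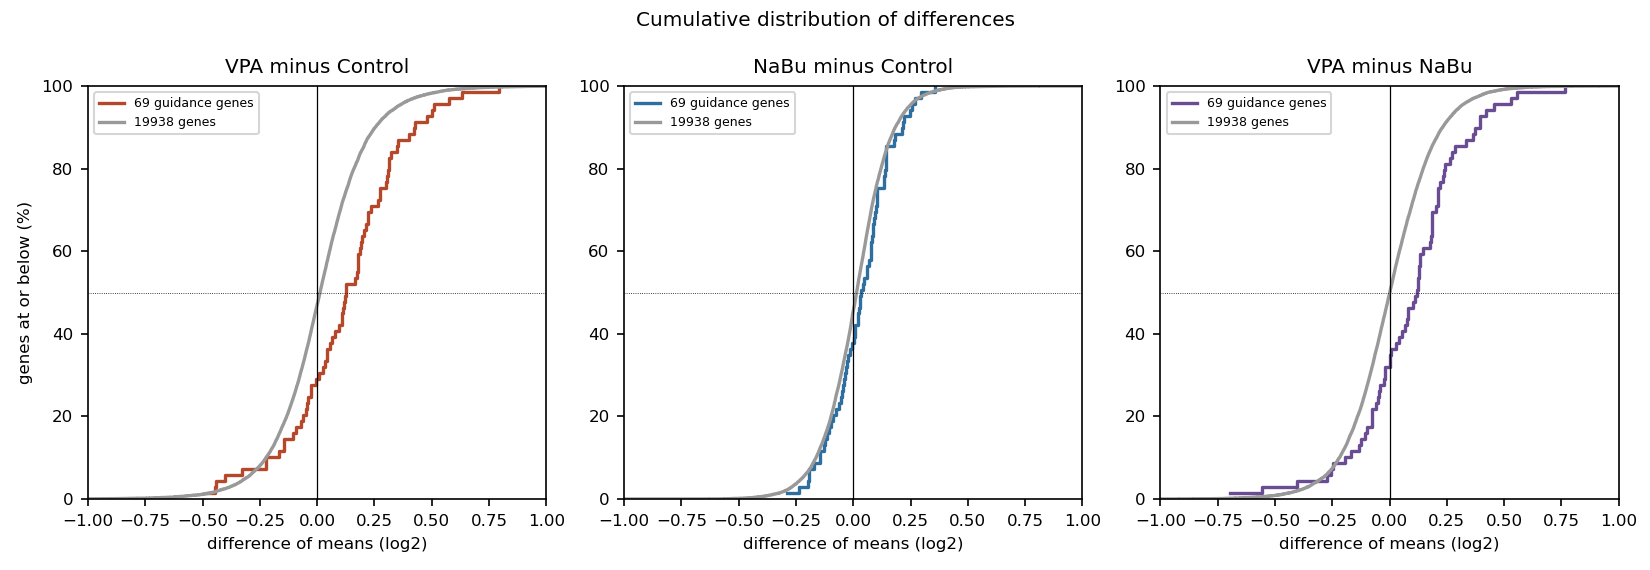
Share of genes (vertical axis, %) at or below each log2 difference of group means (horizontal axis) for VPA minus Control, NaBu minus Control and VPA minus NaBu, the 69 guidance genes in colour and all 19938 genes in grey. The guidance curve crosses 50% at 0.13 for VPA minus Control, 0.03 for NaBu minus Control and 0.12 for VPA minus NaBu, and the grey curves at 0.01, 0.01 and 0.00. The first and second panels share the Control arrays, and the third shares the VPA and NaBu arrays with them.

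Guidance genes did pass the threshold between the replicate sets, where 3 arrays stand against 3. In limma with the group means in the model, 15 of 69 members (21.7%) differed between set 2 and set 1 at an adjusted p under 0.05, where 11.6% of all genes did, 11 of them higher in set 2 (6.04% of all genes) and 4 lower (5.56%). Higher in set 2 were Plxna4 (1.04), Ephb4 (0.67), Sema4c (0.50), Efnb1, Sema6d and Unc5b (0.49 each), Efna1 (0.44), Epha7 (0.43), Sema3e and Ntng1 (0.40 each) and Nrp2 (0.36). Lower in set 2 were Sema3c (-0.96), Epha4 (-0.78), Robo4 (-0.77) and Epha3 (-0.48).

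Ephb4, the receptor of ephrin-B2 in veins, had 7.54 and 8.14 in VPA, 7.39 and 8.12 in NaBu and 7.39 and 8.06 in Control, an adjusted p of 0.00381 in limma. The second array was the higher in each group, and the VPA minus Control difference was 0.11 (95% interval -0.73 to 0.95). Plxna4, a plexin that carries Sema3a signals, had 4.18 and 5.72 in VPA, 4.41 and 5.57 in NaBu and 4.70 and 5.11 in Control. Its second array exceeded the first in each group. Unc5b, a netrin receptor also made by endothelium, had 7.19 and 7.77 in VPA, 7.06 and 7.43 in NaBu and 7.02 and 7.55 in Control. Sema6d had 4.70 and 5.06 in VPA, 4.65 and 5.26 in NaBu and 4.57 and 5.07 in Control, again with the second arrays on top. The count of 15 changed with the array left out, and the share of all genes called in those settings was not counted.

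Cell type markers were also compared between the sets, where limma called 6.04% of all genes higher and 5.56% lower in set 2. Of the 23 fibroblast markers 20 were higher in set 2, 11 of them at an adjusted p under 0.05, with a median of 0.40. Col1a1, a collagen of fibroblasts, had 8.18 and 9.34 in VPA, 8.33 and 9.66 in NaBu and 8.18 and 8.99 in Control. Of the 7 endothelium markers 5 were lower and 2 higher in set 2, with a median of -0.08. At that threshold 3 were lower, Tek (-1.46), Vwf (-0.50) and Kdr (-0.47). Of the 10 pluripotency markers 8 were lower in set 2, 1 of them at that threshold, with a median of -0.13. Of the 12 neuron markers 8 were higher in set 2, 2 of them at that threshold. Counts of 1 and 2 are too small to set the pluripotency and neuron lists apart from all genes. The part of feeder or endothelial RNA in the set differences of the guidance genes was not tested.

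**Figure D4:**
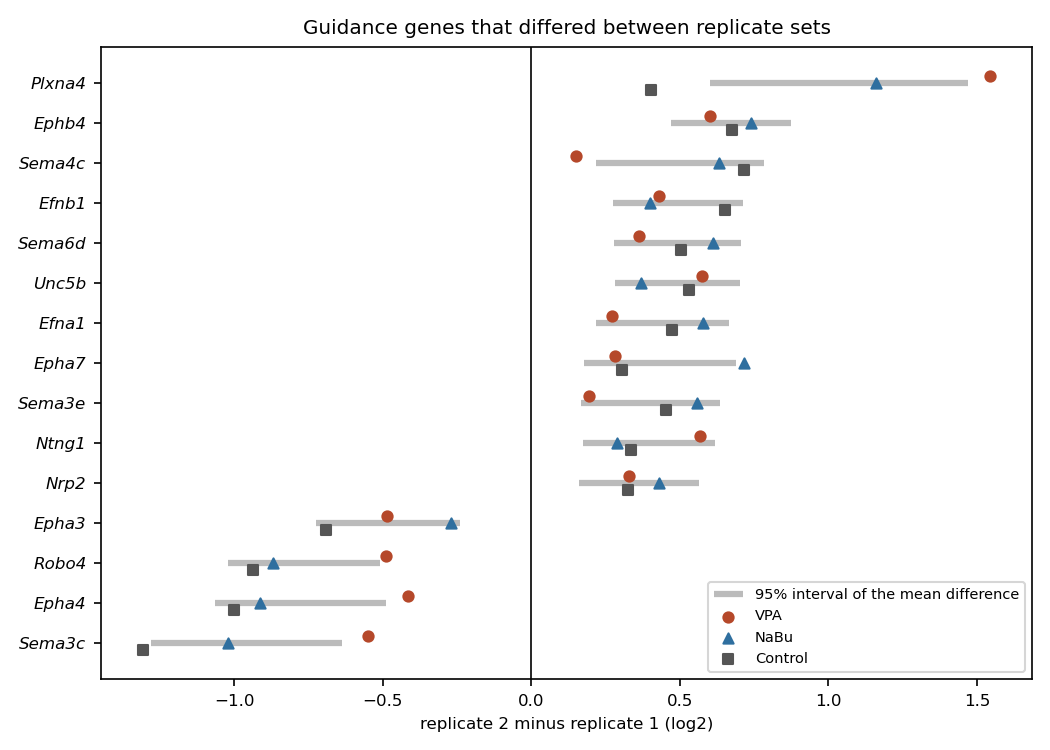
Log2 difference between replicate 2 and replicate 1 (horizontal axis) within VPA (circles), NaBu (triangles) and Control (squares) for the 15 guidance genes at an adjusted p under 0.05, with grey bars for the 95% interval of the mean difference from limma. All points of a gene lie on the same side of 0, 11 genes to the right and 4, led by Sema3c, to the left.

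Members with the highest means over the 6 arrays included Plxnb2, Plxna1, Robo1, Sema4b and Efnb2. Plxnb2, a plexin for class 4 semaphorins, had 8.53 and 9.02 in VPA, 8.50 and 9.04 in NaBu and 8.68 and 8.82 in Control, and its VPA minus Control difference was 0.02 (95% interval -0.54 to 0.59). Plxna1 had 8.80 and 8.72 in VPA, 8.76 and 8.80 in NaBu and 8.85 and 8.45 in Control, a difference of 0.11 (95% interval -0.27 to 0.49). Robo1, a Slit receptor, had 8.59 and 8.38 in VPA, 8.36 and 8.38 in NaBu and 8.45 and 8.10 in Control, a difference of 0.21 (95% interval -0.17 to 0.59). In these 3 receptors the groups overlapped. Sema4b had 8.15 and 8.32 in VPA, 8.29 and 8.29 in NaBu and 8.36 and 8.20 in Control, and Efnb2 had 7.81 and 8.15 in VPA, against 7.67 and 7.85 in Control, a difference of 0.22 (95% interval -0.15 to 0.59). Among the 3 Slits, VPA minus Control differences ran from -0.01 to 0.30.

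Genes that work beside these ligands and receptors were also counted. Of 64 measured intracellular transducers 41 stood higher with VPA, with a median of 0.06, and 6 (9.38%) were at least 0.2 higher and 3 (4.69%) at least 0.2 lower in both sets, against 6.47% and 5.51% of all genes. None passed an adjusted p of 0.05, and at an unadjusted p under 0.05 stood 8 higher (12.5%, against 7.21% of all genes) and 4 lower (6.25%, against 6.01%) with the block, and 2 higher and 3 lower without it, where 2.74% and 2.18% of all genes were. Srgap1, a GTPase activator recruited by Robo receptors, had 6.52 and 6.31 in VPA, 5.76 and 6.05 in NaBu and 5.67 and 5.61 in Control, a VPA minus Control difference of 0.77 (95% interval 0.41 to 1.13). Its VPA arrays lay above the other 4. Enah, an actin regulator, differed by -0.57, and Mical1, an actin-oxidising enzyme downstream of plexins, by -0.53. With NaBu 41 of 64 stood higher, with a median of 0.03 and 0 at an unadjusted p under 0.05 with the block, and Vav3 differed by 0.26, Fes by -0.24 and Tiam2 by 0.23.

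Of 45 measured other guidance ligands, receptors and coreceptors 31 stood higher with VPA, with a median of 0.12. In both sets 10 (22.2%) were at least 0.2 higher and 0 at least 0.2 lower, where 6.47% and 5.51% of all genes were. At an unadjusted p under 0.05 stood 11 higher (24.4%) and 0 lower with the block, where 7.21% and 6.01% of all genes were, and 4 higher (8.89%) and 0 lower without it, where 2.74% and 2.18% were. None passed an adjusted p of 0.05. The VEGF receptor Kdr, which is also among the endothelium markers, differed by 0.53 (95% interval -0.09 to 1.15), Bmp7 by 0.53 and the cell adhesion gene Nrcam by 0.45. With NaBu 25 of 45 stood higher, with a median of 0.02, and Met differed by 0.40, Cdon by 0.34 and Rgma by -0.24. These lists have no member in common with the 69 genes.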

How the data were processed

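Log2 expression per probeset was deposited by the authors for the 6 arrays, after RMA. The submitters' processing notes name Affymetrix Expression Console 1.1 as the software, and its settings were not given in the sources used here. Of 35556 probesets 23410 were in the platform annotation, 21789 with 1 gene symbol and 1621 with several, and the first kind gave 19938 genes, 1 probeset each (highest mean). All 69 members matched RefSeq by symbol. The number of arrays limits the precision.

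From these values limma 3.58.1 in R 4.3.3 (lmFit, eBayes) fitted 1 mean per group over the 6 arrays (3 residual degrees of freedom), with Benjamini-Hochberg adjustment over all genes at 0.05, and intervals at 95%. The replicate number was added as a block (2 residual degrees of freedom) because deviations from the group means correlated across genes between arrays of the same number, at 0.558 (VPA and Control), 0.693 (NaBu and Control) and 0.567 (VPA and NaBu). This pairing was read from the data and not from the labels.

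The members, marker lists (pluripotency, fibroblast, neuron, neural progenitor, endothelium, primitive endoderm), pathway lists and tests were chosen with earlier results of these data known. Named genes were the 6 members with the largest moderated statistic in each direction of each comparison with the block, the 4 in each direction between replicate sets, members past the threshold, and the 8 of highest mean. Ephb6, Plxna2, Efna3 and Ephb1 fall outside this rule and were named after their values were seen. The same holds for Ephb3, Sema7a, Efna2 and Plxnb1, which are named only in lists. Alternatives were other scalings, a variance trend, a filter on dim genes, other probeset rules and each array left out. Promoters are from RefSeq (GRCm38.p6), searched for GGGCGG on both strands.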

Additional observations from a re-analysis of the deposited data

How the results depend on the processing

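With 2 arrays per group precision is low, signal over background was not given per probeset, and 0 genes passed in any treatment comparison with all 6 arrays. The replicate block left those 3 counts at 0 and changed no call. Median centring, quantile normalization, a variance trend, the mean of a gene's probesets and every probeset as its own feature left the counts of called genes at 0 in the 3 treatment comparisons and gave between 14 and 17 called members between replicate sets. Over the other scalings, probeset rules and the filter on dim genes, the median difference of the members ranged from 0.09 to 0.18 for VPA against Control, 0.03 to 0.08 for NaBu against Control, 0.08 to 0.13 for VPA against NaBu and 0.04 to 0.13 between sets. The member median varied between arrays of a group with an SD of 0.139, which is larger than each of these medians as reported, so that spread cannot show whether they are stable. With dim genes left out (those under the median level), 35 members remained. Those that moved at least 0.2 the same way in both replicate sets numbered 10 of 35 for VPA against Control (16 of all 69). For VPA against NaBu they numbered 6 of 35 (10 of all 69). Fewer were tested, and higher and lower moves were counted together. The share of all genes left after this filter was not counted. These counts therefore cannot set the members apart from other genes.

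With each array left out in turn, with or without the block, the genes called ranged from 0 to 774 for VPA against Control, 0 to 1 for NaBu against Control and 0 to 363 for VPA against NaBu, both high counts without VPA replicate 2. Without Control replicate 2 and with the block, 7 genes were called for VPA against Control. Guidance genes called ranged from 0 to 6 for VPA against Control, 0 to 0 for NaBu against Control, 0 to 3 for VPA against NaBu and 5 to 16 between replicate sets. The median difference ranged from 0.09 to 0.19 for VPA against Control, -0.04 to 0.13 for NaBu against Control, 0.01 to 0.17 for VPA against NaBu and 0.03 to 0.10 between sets. The count between sets was 9 without Control replicate 1 or 2. A model with 1 mean per replicate set and no replicate block beside the groups called 11 guidance genes in place of 15. The share of all genes called between sets was counted only in the main fit with the replicate block. The other counts of members called between sets therefore have no such share beside them.

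Of 36 named gene differences, 13 changed sign in some setting, in each case with 1 array left out, and 8 of the 13 did so only without the block, where leaving out an array also unbalances the replicate sets. The ranges that follow are without the block unless stated. Against Control with VPA, Robo4 ranged from -0.872 to 0.0666, Epha4 from -0.83 to 0.17 and Sema3a from -1.01 to 0.13 (0.0719 without VPA replicate 1 with the block). Against Control with NaBu, Epha3 ranged from -0.0502 to 0.64 and Sema3c from -0.30 to 1.01. Efna1 ranged there from -0.49 to 0.0899 and Epha7 from -0.11 to 0.60. Dcc ranged from -0.599 to 0.0157 without the block and -0.61 to 0.0319 with it. With the block, Nrp1 ranged from -0.0339 to 0.46 and Ntn4 from -0.30 to 0.0152 for NaBu against Control. Between VPA and NaBu, Sema3c ranged from -0.91 to 0.11 and Robo4 from -0.69 to 0.18. With the block, Ntn1 ranged from -0.63 to 0.0907 in that comparison. The cause was not tested. As an alternative added after seeing the data, the 54 members without a called set difference gave medians of 0.13 for VPA against Control, 0.03 for NaBu against Control and 0.12 for VPA against NaBu.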
